A study of Mus musculus with 12 samples.

Results

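Serpins are a family of proteins that share 1 fold. Most inhibit serine proteases by acting as a bait: the protease cuts an exposed loop, the serpin snaps into another shape and the protease stays trapped on it. A few members inhibit cysteine proteases or no protease at all and work as hormone carriers or chaperones. The family is divided into lettered clades. Clade a holds mostly secreted members such as the antitrypsins, clade b holds intracellular members found in skin, mucosa and white blood cells, and the smaller clades hold inhibitors of clotting, plasmin and complement and a collagen chaperone. In stratified epithelium, clade b serpins are abundant in keratinocytes and are thought to protect cells from leaked proteases.

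The serpin genes were taken as all genes whose symbol in the platform annotation starts with Serpin, a letter and a number. They numbered 49 genes with 60 probes, of 16593 annotated genes and 25697 probes on the array. RNA came from 12 mouse oral tumours, 6 labelled KHR and 6 labelled KHR-NICD, each hybridised to its own single-colour Illumina MouseRef-8 v2 bead array. The mice were FVB x C57BL/6 F1 animals and the tumours were isolated after 21 days of growth. Both groups carry KHR, a name the labels leave unexplained, and NICD commonly stands for the intracellular domain of Notch. The promoters and alleles behind these names and the age of the mice are not given in the labels. Replicates are labelled biological, with no word on separate animals, so the p-values cover the spread among these tumours only.

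Detected probes made up 43.6% to 48.1% of an array. The detection p sets a probe's signal against the background of its own array, and probes with a value under 0.05 on at least 6 of the 12 arrays were kept. All values below are background-corrected, quantile-normalised log2 signals, and each difference is KHR-NICD minus KHR. Epithelial markers were present in these oral tumours: 8 of 8 basal and 10 of 11 suprabasal keratinocyte markers were measured, with mean log2 values of at least 11.41 and 12.27 in every tumour. Of the liver markers 0 of 5 on the array were kept, with Alb, Apoa1, Ttr and Fgb detected on 0 arrays. Earlier results of these data showed that the tumours split by the Y-linked gene Eif2s3y. Eif2s3y stood at 8.18 or above in 5 tumours, namely KHR 4, 5 and 6 with KHR-NICD 1 and 4. It stood at 4.92 or below in the other 7, where Xist stood at 6.62 or above. Within KHR this split coincides with the replicate numbers 1 to 3 and 4 to 6, so the 2 cannot be told apart there. In these bulk samples, fewer cells of a type and less RNA per cell cannot be told apart either.

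The 49 genes all matched a current symbol by Entrez identifier. In the gene order of GRCm38.p6 most of them neighbour each other. Of the clade b genes on the array, 11 lie in a run on chromosome 1 and 14 in a run on chromosome 13, and 14 clade a genes lie in a run on chromosome 12. Promoter windows reaching from 250 bases before to 50 bases after a gene's start were available from RefSeq for 14 of the 17 serpin genes with a kept probe. Both strands were searched for TGGGAA, the core of the site bound by RBPJ, the DNA-binding partner of NICD. It was present in the windows of 3 of these 14 genes, Serpina3n, Serpinb8 and Serpinb11, and in 25.6% of all 32851 windows. The windows of Serpina12, the serpin with an unadjusted p under 0.05 by both probes, and of Serpina3n and Serpinb8, which hold 2 matches each, are shown to let this be seen. They lie at chr12:104044394-104044693 on the minus strand, at chr12:104406458-104406757 on the plus strand and at chr1:107589756-107590055 on the plus strand of GRCm38.p6. Capitals mark TGGGAA or its reverse complement TTCCCA.
Serpina12: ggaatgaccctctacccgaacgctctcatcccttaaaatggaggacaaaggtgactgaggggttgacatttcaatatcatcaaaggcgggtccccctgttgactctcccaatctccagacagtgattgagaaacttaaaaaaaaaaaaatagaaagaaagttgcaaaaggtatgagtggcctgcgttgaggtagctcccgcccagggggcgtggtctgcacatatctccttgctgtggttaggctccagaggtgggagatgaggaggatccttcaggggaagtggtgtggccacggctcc
Serpina3n: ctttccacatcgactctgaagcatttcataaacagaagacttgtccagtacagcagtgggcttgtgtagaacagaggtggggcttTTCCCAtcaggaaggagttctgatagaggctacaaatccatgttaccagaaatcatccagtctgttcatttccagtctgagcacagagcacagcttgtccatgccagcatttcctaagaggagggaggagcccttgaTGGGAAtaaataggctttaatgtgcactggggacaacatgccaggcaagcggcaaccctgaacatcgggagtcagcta
Serpinb8: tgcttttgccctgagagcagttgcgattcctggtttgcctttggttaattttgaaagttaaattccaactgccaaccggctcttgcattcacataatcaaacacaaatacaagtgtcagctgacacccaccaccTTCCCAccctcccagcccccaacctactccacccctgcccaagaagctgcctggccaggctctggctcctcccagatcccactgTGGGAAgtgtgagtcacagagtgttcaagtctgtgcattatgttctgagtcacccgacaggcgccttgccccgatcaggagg

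A match is a run of letters and not a measured site, and the Serpina12 window held 0 matches. A second pair of windows is shown because these close relatives in the chromosome 1 run varied by very different amounts between tumours. They belong to Serpinb3a at chr1:107052254-107052553 and Serpinb3c at chr1:107278322-107278621, both on the minus strand. Their windows were identical at 250 of 334 alignment columns (74.9%), a count that includes columns with a gap. The windows are shifted against each other, with TATAAA at -65 bases from the gene's start in Serpinb3a and at -31 in Serpinb3c. The percentage therefore understates the identity of the bases that face each other. Capitals mark TATAAA, the TATA box sequence, present in 13.6% of all windows when both strands are searched.
Serpinb3a: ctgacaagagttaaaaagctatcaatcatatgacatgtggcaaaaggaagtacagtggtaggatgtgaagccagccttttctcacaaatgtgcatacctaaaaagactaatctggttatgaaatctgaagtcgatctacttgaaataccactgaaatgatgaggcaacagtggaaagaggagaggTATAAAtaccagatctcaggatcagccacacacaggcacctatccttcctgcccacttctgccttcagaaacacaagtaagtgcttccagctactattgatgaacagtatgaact
Serpinb3c: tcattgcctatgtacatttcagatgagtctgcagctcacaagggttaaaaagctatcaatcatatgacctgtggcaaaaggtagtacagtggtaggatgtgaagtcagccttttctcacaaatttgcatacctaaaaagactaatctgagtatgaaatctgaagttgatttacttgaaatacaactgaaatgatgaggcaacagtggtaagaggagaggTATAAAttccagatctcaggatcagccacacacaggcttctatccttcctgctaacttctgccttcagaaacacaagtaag

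Detection divided the family first. Of the 60 probes, 20 were kept, which is 33.3% against 45.6% of all probes, and they represent 17 genes. Of the 40 probes not kept, 34 were detected on 0 arrays, and none was detected on more than 3. Just inside the filter stood a probe of Serpina1a, detected on 7 arrays, and Serpinb6d, detected on 8. Just outside it stood Serpinb9e, detected on 3 arrays, and the pseudogene Serpina4-ps1, detected on 2. Among the kept probes, 17 were detected on all 12 arrays. The values of the probes not kept lay between 4.33 and 5.60 on the log2 scale, at or near background.

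In clade a, 4 of 16 genes were kept. Those missing were mainly plasma proteins, such as the hormone carriers Serpina6 (corticosteroid-binding globulin) and Serpina7 (thyroxine-binding globulin), the antitrypsin copies Serpina1b to Serpina1e, and Serpina10, the inhibitor that works with protein Z in clotting. In clade b, 10 of 25 genes were kept. Those not kept included Serpinb5 (maspin), Serpinb7 and Serpinb13, all known from keratinocytes, each with 1 probe detected on 0 arrays, and Serpinb9, the granzyme B inhibitor of cytotoxic cells, also on 0 arrays. Whether these single probes read their genes was not tested, so missing detection does not show missing expression. Neither clade c (Serpinc1, antithrombin) nor clade d (Serpind1, heparin cofactor II) had a kept probe, and the same held for clade i (Serpini1, neuroserpin, and Serpini2). In clade f Serpinf1 was kept and Serpinf2, the plasmin inhibitor, was not. Serping1 and Serpinh1, the single members of their clades, were kept. Within the runs of neighbours, 6 of 11 genes were kept on chromosome 1, and 4 of 14 on each of chromosomes 12 and 13.

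**Figure D1:**
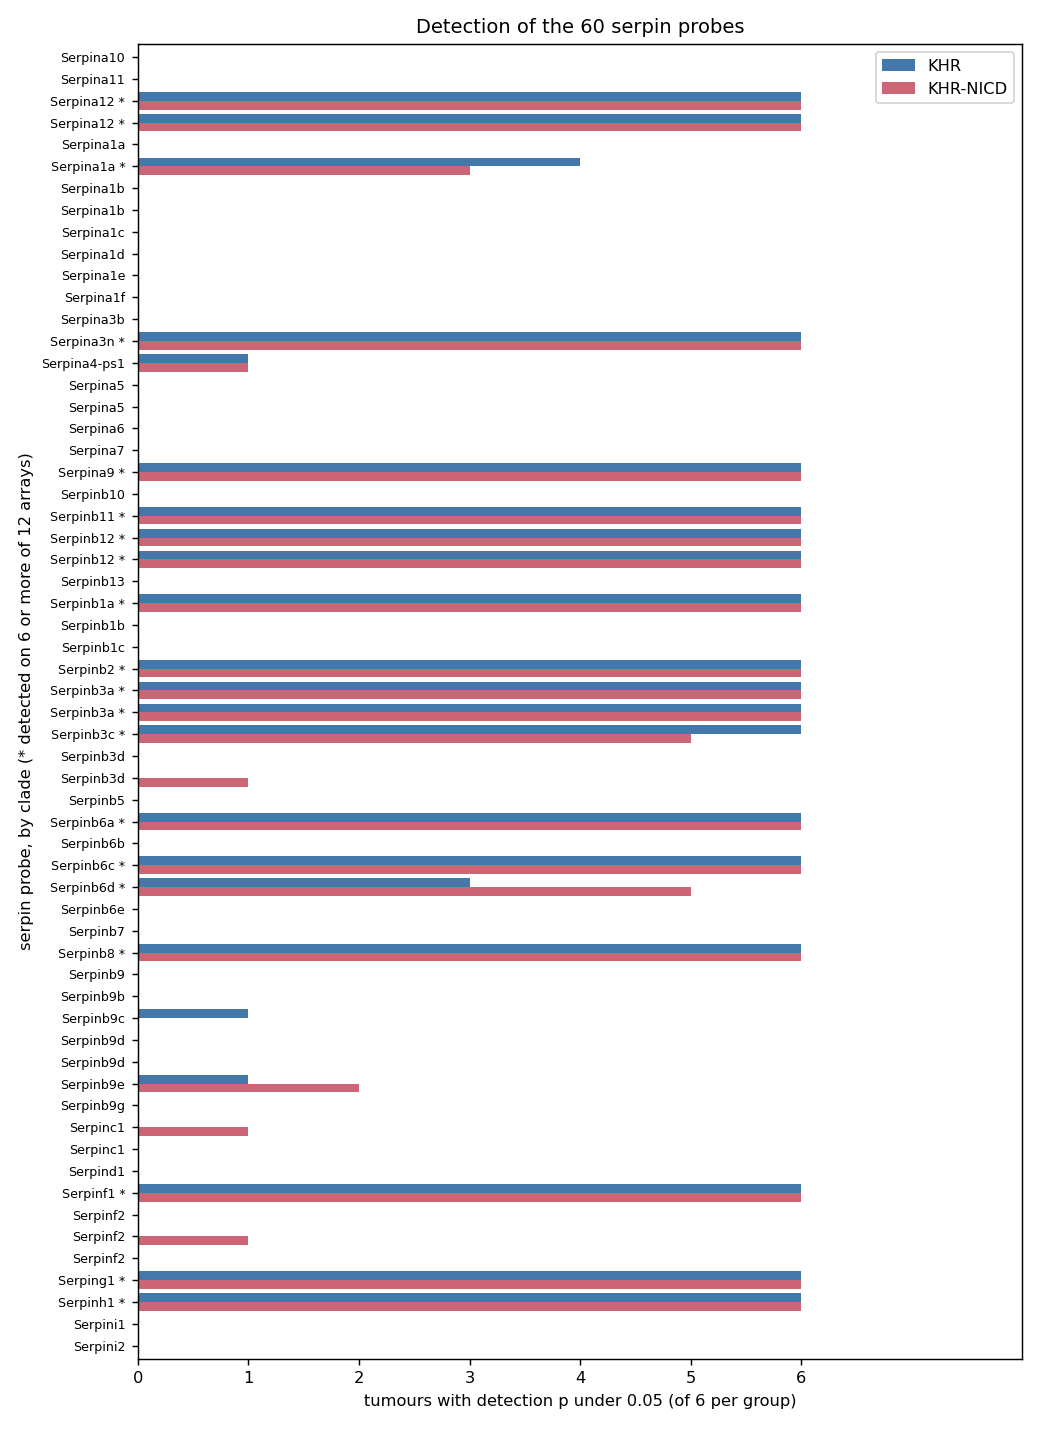
Number of tumours per group (0 to 6, horizontal axis) in which each of the 60 serpin probes, ordered by clade, had a detection p under 0.05; blue bars are KHR and red bars KHR-NICD, and asterisks mark the 20 kept probes. Most probes were either detected in all 6 tumours of both groups or in none.

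Between the tumour types, limma called 0 of 20 serpin probes at an adjusted p under 0.05, where it called 0.0683% of all probes (8 of 11721). The higher calls were 3 probes (0.0256%) and the lower calls 5 (0.0427%). With median centring in place of quantile normalization it called 3 higher and 28 lower, none of them a serpin. At an unadjusted p under 0.05 stood 2 serpin probes, both of Serpina12, against 13.2% of all probes. For 0 serpin probes did the groups fail to overlap, against 1.37% of all probes. The median difference was 0.01 over the 20 serpin probes and 0.006 over all kept probes. Of the 20 differences 10 were positive and 10 negative, and with median centring 3 of the positive ones (Serpinb6a, Serpinb6c and 1 probe of Serpinb12) turned negative. By clade the medians were 0.05 over 5 probes in clade a and -0.02 over 12 probes in clade b, with single probes at 0.22 in clade f, 0.17 in clade g and -0.25 in clade h. The typical serpin difference was small, with a median size of 0.09 against 0.12 over all kept probes. The spread inside the groups was not small: the median SD was 0.39 for serpin probes and 0.23 for all kept probes.

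**Figure D2:**
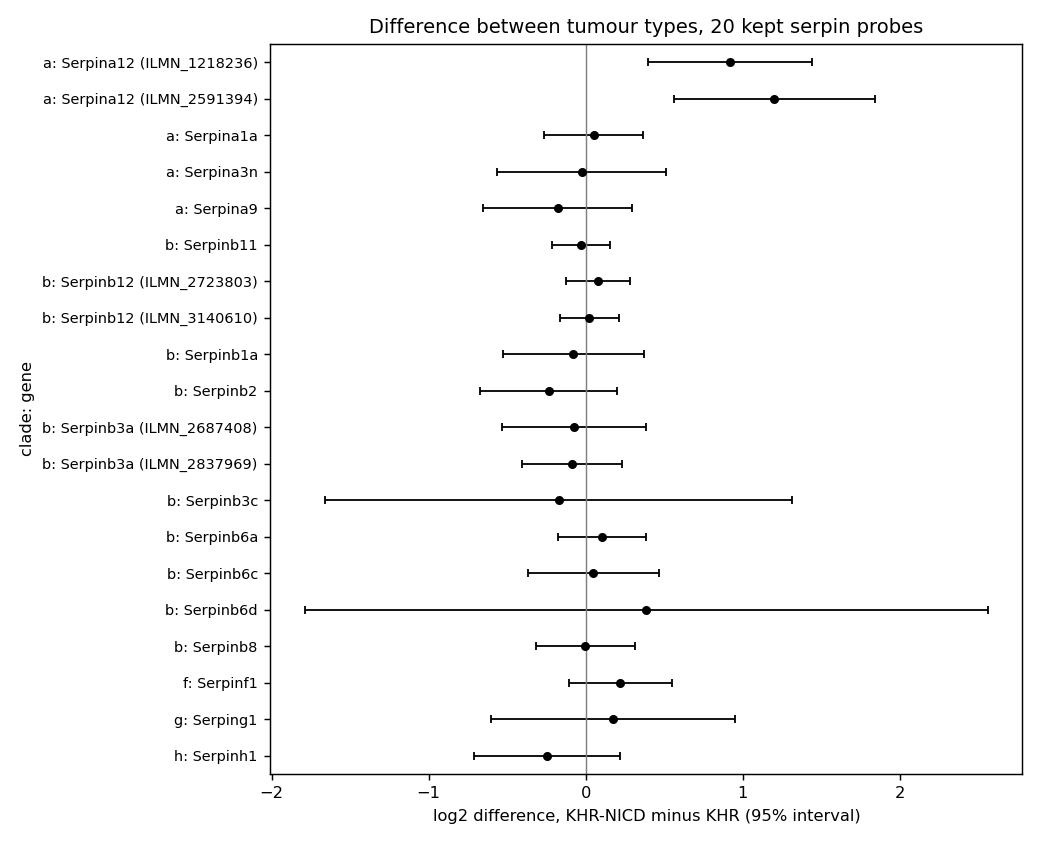
Log2 difference of KHR-NICD minus KHR (horizontal axis) with its 95% interval from limma for the 20 kept serpin probes, labelled by clade and gene. The 2 Serpina12 intervals lie above 0, at 0.39 to 1.44 and 0.56 to 1.84, and the other 18 include 0.

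Serpina12 of clade a had the largest differences in this fit, while with array weights Serpinb6d of clade b had a larger one, 1.65 (limma adjusted p = 0.328). Serpina12, also called vaspin, is a secreted serpin known as an adipokine that inhibits the skin protease kallikrein 7. By its probe ILMN_1218236 the KHR tumours ran from 10.33 through 10.98 to 11.99 (lowest, median and highest, as in all such runs of 3 values below), and the KHR-NICD tumours from 11.71 through 11.83 to 12.44. KHR tumour 1 alone among the KHR tumours reached the KHR-NICD range, and 2 of 6 KHR-NICD tumours lay above it. The difference was 0.92 (SE 0.24), or 1.89-fold, and did not pass (limma adjusted p = 0.144).

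The second probe of Serpina12, ILMN_2591394, had KHR values from 7.12 through 7.45 to 8.46 and KHR-NICD values from 8.03 through 8.71 to 9.77. Here 4 of 6 KHR-NICD tumours lay above every KHR tumour. The difference was 1.20 (SE 0.30), or 2.30-fold, and again did not pass (limma adjusted p = 0.122). The probes ranked the tumours alike, with Pearson's r = 0.917 over 12 tumours (permutation p = 1e-05, the smallest 100000 permutations can give, adjusted p = 3e-05 over 3 pairs of probes) and Spearman's rho = 0.909 (permutation p = 0.00014, adjusted p = 0.00042). Without the 2 tumours farthest from the median r was 0.923, and within the groups it was 0.944 in KHR and 0.878 in KHR-NICD.

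Serpina12 kept its direction on either side of the Eif2s3y split. In the 7 tumours without Eif2s3y the differences of its probes were 0.69 and 1.23, and in the 5 with it 1.07 and 0.93. With Eif2s3y as a covariate ILMN_2591394 stood at 1.10 (SE 0.26) and passed (limma adjusted p = 0.0497), while ILMN_1218236 did not (limma adjusted p = 0.0639). That fit called 2.03% of all probes, and 0.87% of all probes as higher. Estimating a weight for each array let both pass (limma adjusted p = 0.0302 for ILMN_1218236 and 0.0292 for ILMN_2591394) in a fit that called 1.07% of all probes. Leaving out KHR tumour 1 let ILMN_1218236 pass (limma adjusted p = 0.0448) in a fit that called 0.145% of all probes. Leaving out each tumour in turn gave adjusted p from 0.0448 to 0.28 and from 0.0781 to 0.256 for the 2 probes by limma. Beside this, the mean log2 value of the 10 measured suprabasal keratinocyte markers ran from 12.27 to 12.91 in KHR and from 12.36 to 12.83 in KHR-NICD tumours, and all 6 KHR-NICD values lay within the KHR range. Of the salivary gland markers 1 of 5 on the array was measured, the water channel Aqp5. It ran from 9.59 to 10.74 in KHR and from 10.86 to 11.41 in KHR-NICD tumours, without overlap, as were 1.37% of all kept probes. Its difference was 0.85 (SE 0.18, limma adjusted p = 0.0836), while Amy1, Prol1, Smr3a and Bpifa2 were detected on 0 arrays, and the part of salivary tissue in the Serpina12 values was not tested.

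Kallikrein 7, the known target of Serpina12, and kallikrein 5, which activates it, were named outside the rule for naming genes. Klk7 ran from 12.05 through 12.64 to 12.93 in KHR and from 12.45 through 12.83 to 12.92 in KHR-NICD tumours, a difference of 0.20 (SE 0.16, limma adjusted p = 0.639). For Klk5 the difference was 0.54 (SE 0.26, limma adjusted p = 0.402). Neither passed, and for both the groups overlapped.

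**Figure D3:**
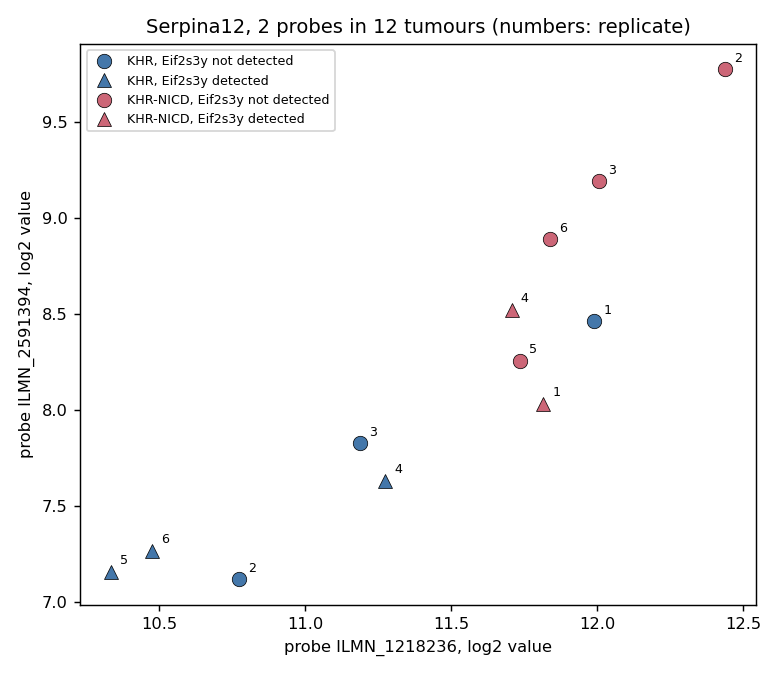
Log2 values of the 2 Serpina12 probes (ILMN_1218236 on the horizontal and ILMN_2591394 on the vertical axis) in 12 tumours, blue for KHR and red for KHR-NICD, with triangles where Eif2s3y was detected and the replicate number beside each point. KHR tumour 1 lies among the KHR-NICD tumours, and the other 5 KHR tumours lie below and left of all 6.

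The other 3 clade a members had differences from -0.18 to 0.05. Serpina3n, an acute phase serpin related to human antichymotrypsin, ran from 7.66 through 8.29 to 9.14 in KHR and from 7.74 through 8.25 to 8.99 in KHR-NICD tumours. Its difference was -0.03 (95% interval -0.57 to 0.51, limma adjusted p = 0.98). Serpina9, known in human from germinal centre B cells, had KHR values from 8.36 through 8.54 to 9.12 and KHR-NICD values from 7.87 through 8.48 to 9.10. Its difference was -0.18 (95% interval -0.65 to 0.29, limma adjusted p = 0.779), and 3 KHR-NICD tumours lay below every KHR tumour. The kept probe of Serpina1a, a copy of the elastase inhibitor antitrypsin, lay near background, between 4.95 and 5.90, with a difference of 0.05 (SE 0.15, limma adjusted p = 0.923), and was detected in 4 tumours of KHR and 3 of KHR-NICD. Its second probe was detected on 0 arrays, and signal from the near-identical antitrypsin copies cannot be told apart here.

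In clade b, 2 neighbours of the chromosome 1 run, Serpinb11 and Serpinb12, varied little between tumours. Serpinb12, an epithelial inhibitor of trypsin-like proteases, ran from 14.07 through 14.22 to 14.37 in KHR and from 14.06 through 14.28 to 14.39 in KHR-NICD tumours by ILMN_3140610. The difference was 0.02 (95% interval -0.16 to 0.21, limma adjusted p = 0.941), and by its second probe 0.08 (interval -0.12 to 0.28, limma adjusted p = 0.771). Serpinb11, whose mouse protein inhibits trypsin, had KHR values from 12.57 through 12.91 to 12.996 and KHR-NICD values from 12.67 through 12.84 to 12.89, a difference of -0.03 (interval -0.21 to 0.15, limma adjusted p = 0.919). The whole range over 12 tumours was 0.33 and 0.42 for the Serpinb12 probes ILMN_3140610 and ILMN_2723803 and 0.42 for Serpinb11. Of all kept probes, 10.2%, 17.4% and 9.33% had a lower SD within groups, in that order. By ILMN_3140610 the KHR mean of Serpinb12 was 14.23, close to that of the keratin Krt14 at 14.30. Whether signals this high are compressed was not tested.

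Serpinb3a, a mouse counterpart of the human squamous cell carcinoma antigens, inhibits chymotrypsin-like and cathepsin proteases. By ILMN_2837969 it ran from 12.58 through 12.81 to 12.97 in KHR and from 12.08 through 12.78 to 13.06 in KHR-NICD tumours, with a difference of -0.09 (95% interval -0.41 to 0.23, limma adjusted p = 0.855). By ILMN_2687408 it ran from 7.56 through 8.15 to 8.29 and from 7.13 through 8.04 to 8.56, and the difference was -0.07 (interval -0.53 to 0.39, limma adjusted p = 0.922). The groups overlapped by both probes, which had r = 0.865 over 12 tumours (permutation p = 0.00043, adjusted p = 0.000645 over 3 pairs; Spearman's rho = 0.72, permutation p = 0.0114, adjusted p = 0.0114), or 0.634 without the 2 tumours farthest from the median. For Serpinb12 the corresponding r was 0.812 (permutation p = 0.00161, adjusted p = 0.00161), rho was 0.841 (permutation p = 0.00104, adjusted p = 0.00156), and r was 0.713 without the 2 farthest. KHR-NICD tumour 4 was the lowest of all 12 by both Serpinb3a probes, at 12.08 and 7.13. Among the KHR tumours, tumour 4 was the lowest by both Serpinb3a probes, at 12.58 and 7.56.

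Serpinb3c, its neighbour and close relative, varied far more. In KHR tumours it ran from 5.45 through 7.88 to 9.08, and in KHR-NICD tumours from 5.37 through 7.995 to 9.55. KHR tumour 4 was low at 5.45, as was KHR-NICD tumour 4 at 5.37, where the probe was not detected, and KHR-NICD tumour 3 followed at 6.56. The other 9 tumours lay between 7.67 and 9.55. Between the groups the difference was -0.17 (SE 0.69, limma adjusted p = 0.944). Its SD within groups, 1.38, exceeded that of 99.7% of kept probes. The standard error over the beads of this probe was 3.29% of its signal in the median array. Probe sequences were not used here, so reading across the near-identical Serpinb3 copies was not tested.

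Serpinb6d had the widest range of the 20 kept serpin probes. It was detected in KHR tumours 1, 2 and 3, at 9.72, 9.01 and 6.32, and stood at 4.67, 4.60 and 4.49, not detected, in KHR tumours 4, 5 and 6. In KHR-NICD tumours 1 to 6 it stood at 4.82 (not detected), 7.55, 8.61, 6.03, 5.55 and 8.57. All tumours spanned 5.23 on the log2 scale, and the difference between the groups was 0.39 (SE 1.01, limma adjusted p = 0.909). The groups overlapped. Beside it, the mean log2 value of the 7 measured of 8 skeletal muscle markers on the array ran from 8.38 to 9.55 in KHR tumours 1 to 3 and from 6.55 to 7.70 in KHR tumours 4 to 6. In KHR-NICD tumours it ran from 7.36 to 8.90 without and from 6.77 to 7.58 with Eif2s3y, and no muscle marker on the array was undetected on all arrays. With the mean of the muscle markers, the muscle score, as a covariate, the Serpinb6d difference was 0.65 (SE 0.61, limma adjusted p = 0.631). For the 10 measured suprabasal keratinocyte markers the mean ran from 12.62 to 12.91 in KHR tumours 1 to 3. In KHR tumours 4 to 6 it ran from 12.27 to 12.41. In KHR-NICD tumours it ran from 12.63 to 12.83 without and from 12.36 to 12.46 with Eif2s3y. KHR tumours 1 to 3 and 4 to 6 did not overlap for 34.4% of all kept probes. The part of muscle or of keratinocytes in the separation of the Serpinb6d values in KHR was not tested.

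Its relatives of the chromosome 13 run were steadier. Serpinb6a, an intracellular inhibitor of cathepsin G, ran from 12.20 through 12.46 to 12.79 in KHR and from 12.32 through 12.46 to 12.93 in KHR-NICD tumours, a difference of 0.10 (95% interval -0.18 to 0.38, limma adjusted p = 0.787). Serpinb6c stood between 10.13 and 10.38 in 5 KHR tumours and at 11.35 in KHR tumour 4, and ran from 10.19 through 10.45 to 10.81 in KHR-NICD tumours. Its difference was 0.05 (95% interval -0.37 to 0.47, limma adjusted p = 0.944). Serpinb8, of the chromosome 1 run, which inhibits furin in human, ran from 5.46 through 5.79 to 6.15 in KHR and from 5.35 through 5.81 to 6.17 in KHR-NICD tumours, a difference of -0.003 (interval -0.32 to 0.31, limma adjusted p = 0.997). All 3 had overlapping groups.

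Serpinb2 is plasminogen activator inhibitor 2, which blocks urokinase, and Serpinb1a guards against the elastase and cathepsin G of neutrophils. Serpinb2 ran from 11.61 through 12.36 to 12.83 in KHR and from 11.90 through 12.04 to 12.36 in KHR-NICD tumours, and the difference was -0.24 (SE 0.20, limma adjusted p = 0.661). Its KHR values separated into 11.61, 11.92 and 12.01 in tumours 1 to 3 and 12.83, 12.72 and 12.73 in tumours 4 to 6. Serpinb1a did the same, with 9.33, 9.38 and 9.68 in KHR tumours 1 to 3 and 10.62, 10.35 and 10.27 in tumours 4 to 6, while the KHR-NICD tumours ran from 9.63 through 9.89 to 10.07. Between the groups it stood at -0.08 (SE 0.21, limma adjusted p = 0.912). Beside both, the mean of the 6 measured of 7 neutrophil markers on the array ran from 8.86 to 9.15 in KHR tumours 1 to 3 and from 9.48 to 9.63 in KHR tumours 4 to 6. In KHR-NICD tumours it ran from 8.75 to 9.10 without and from 9.15 to 9.64 with Eif2s3y. KHR tumours 1 to 3 and 4 to 6 were likewise without overlap for 34.4% of all kept probes. Ngp, a neutrophil granule gene, was detected on 0 arrays, and the part of neutrophils in the Serpinb2 and Serpinb1a values was not tested.

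Clades f, g and h each had 1 kept probe, all of secreted or stromal proteins. Serping1, the C1 inhibitor that shuts off the start of the classical complement pathway, ran from 6.40 through 7.42 to 8.76 in KHR and from 7.56 through 7.75 to 8.06 in KHR-NICD tumours. The KHR-NICD tumours all lay inside the KHR range, and the difference was 0.17 (SE 0.36, limma adjusted p = 0.885). In KHR tumours 1 to 3 it stood at 8.64, 8.76 and 7.90 and in tumours 4 to 6 at 6.94, 6.40 and 6.91. Beside it, the mean of the 8 measured fibroblast markers ran from 6.99 to 7.41 in KHR tumours 1 to 3 and from 6.499 to 7.03 in tumours 4 to 6. In the same order the mean of the 7 measured muscle markers ran from 8.38 to 9.55 and from 6.55 to 7.70. That of the 3 measured of 5 mast cell markers ran from 5.57 to 6.09 and from 5.02 to 5.11. Both were without overlap, as were 34.4% of all kept probes between these KHR tumours. The mast cell markers Cma1, Cpa3 and Fcer1a had KHR means of 5.45, 5.40 and 5.44, within the range of the probes not kept. With the muscle score as a covariate the Serping1 difference was 0.27 (SE 0.22, limma adjusted p = 0.573). The part of fibroblasts and mast cells in the Serping1 values was not tested. The SD of Serping1 was 0.99 in KHR and 0.18 in KHR-NICD tumours.

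Serpinf1, the pigment epithelium-derived factor that restrains vessel growth without inhibiting a protease, ran from 10.02 through 10.29 to 10.67 in KHR and from 10.27 through 10.53 to 10.86 in KHR-NICD tumours. Its difference was 0.22 (SE 0.15, limma adjusted p = 0.573). Serpinh1, the collagen chaperone HSP47, had KHR values from 6.57 through 7.07 to 7.35 and KHR-NICD values from 6.11 through 6.80 to 7.39, a difference of -0.25 (SE 0.22, limma adjusted p = 0.67). For both genes the groups overlapped widely. Beside these stromal serpins, the mean of the 8 measured of 9 fibroblast markers on the array ran from 6.499 to 7.41 in KHR and from 6.80 to 7.60 in KHR-NICD tumours. The part of fibroblasts in these values was not tested.

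**Figure D4:**
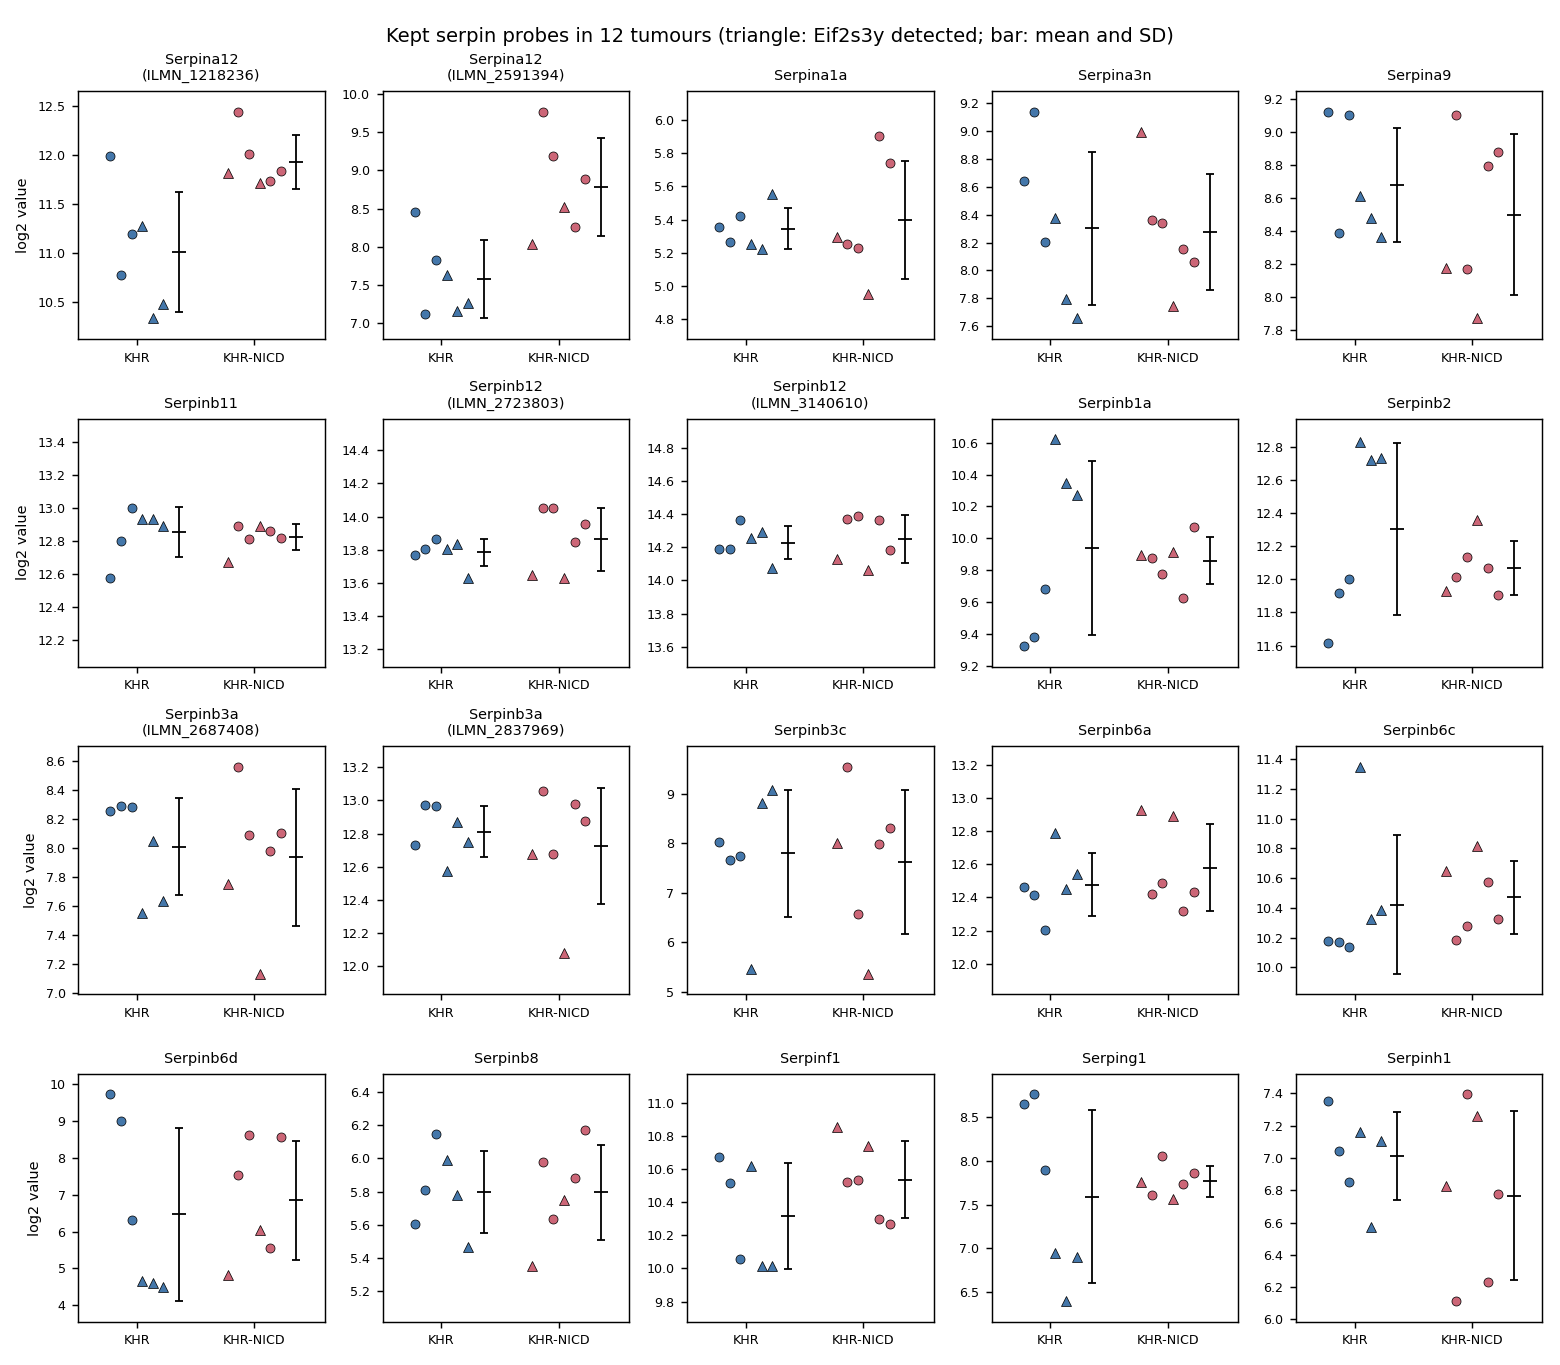
Log2 values of the 20 kept serpin probes in each of 12 tumours (vertical axes, each probe on its own scale of at least 1.5 log2 units), blue for KHR and red for KHR-NICD in order of replicate number, with triangles where Eif2s3y was detected and bars for the mean and SD of 6 tumours. KHR tumours 1 to 3 and 4 to 6 do not overlap for 6 of the 20 probes, those of Serpinb1a, Serpinb2, Serpinb6c, Serpinb6d, Serping1 and Serpinb3a by ILMN_2687408, nor for 34.4% of all kept probes.

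Whether the difference between the tumour types itself differed with Eif2s3y was tested in a fit chosen after seeing the data. Serping1 had a difference of -0.62 in the 7 tumours without Eif2s3y and of 0.91 in the 5 with it, and these differed by 1.53 (SE 0.32, limma adjusted p = 0.0834). Serpinb1a and Serpinb2 ran the other way, with 0.37 and 0.19 without Eif2s3y and -0.51 and -0.62 with it (limma adjusted p = 0.101 and 0.106). None of the 3 passed. At an adjusted p under 0.05, 0 of 20 serpin probes were called, against 0.247% of all probes. These 3 were the serpin probes at an unadjusted p under 0.05, and that share of 20 is near the 17.6% of all probes that reached it. Within KHR, tumours 1 to 3 and 4 to 6 did not overlap for 6 of 20 serpin probes (Serpinb1a, Serpinb2, Serpinb6c, Serpinb6d, Serping1 and 1 probe of Serpinb3a), a share near the 34.4% of all kept probes. Over all 12 tumours, those with and without Eif2s3y did not overlap for 0 serpin probes, against 6.2% of all kept probes.

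**Figure D5:**
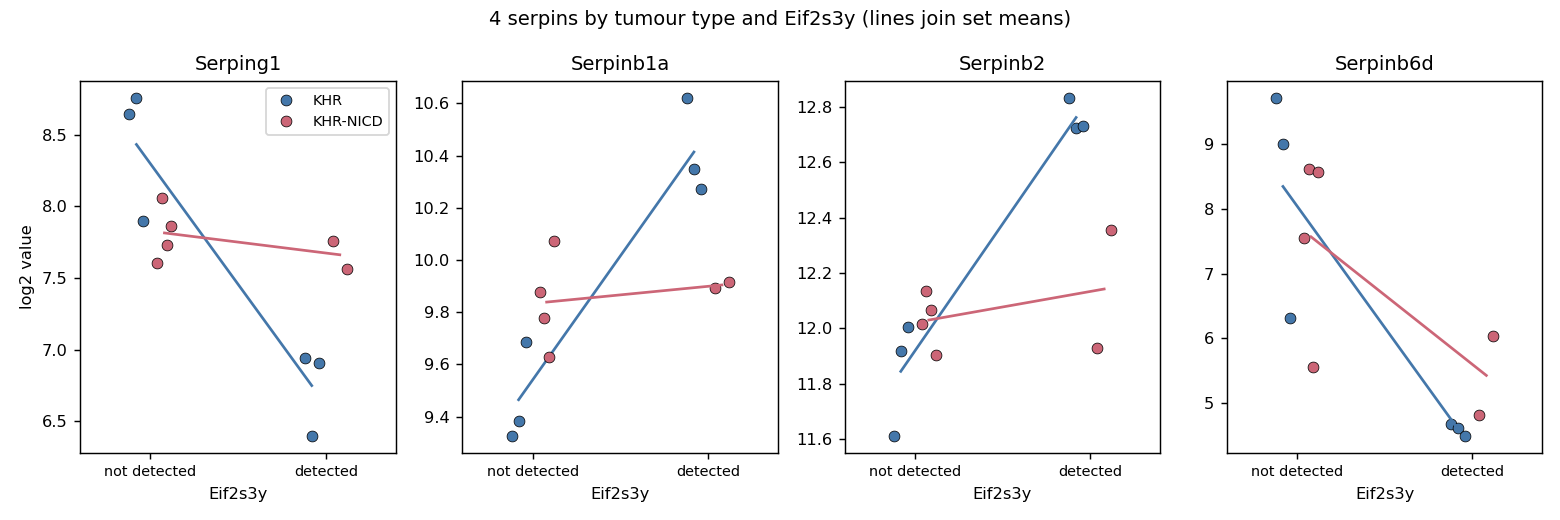
Log2 values of Serping1, Serpinb1a, Serpinb2 and Serpinb6d (vertical axes, each on its own scale) by detection of Eif2s3y (horizontal axis) and tumour type, blue for KHR and red for KHR-NICD, with lines joining the means of 3 and 3 KHR and of 4 and 2 KHR-NICD tumours. For Serpinb6d, the tumours with Eif2s3y minus those without differ in mean by -3.76 in KHR and -2.15 in KHR-NICD tumours. The mean with Eif2s3y minus the mean without it is -1.68, 0.95 and 0.92 for Serping1, Serpinb1a and Serpinb2 in KHR tumours. For KHR-NICD tumours it is -0.15, 0.07 and 0.11 in the same order.

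The proteases that serpins hold in check and the genes they work with were read from 9 lists in the same fit, each gene at its kept probe with the highest mean. In none of the 9 lists did a member pass in either direction, so counts of sign and medians are given beside the median of 0.006 over all probes. Of all kept probes, 51.4% had a positive difference. Plasminogen activation, the target of Serpinb2, had 7 of 12 members on the array measured, 4 positive and 3 negative, with a median of 0.05. Thbd, the thrombin receptor that turns clotting off, stood at 0.50, Plgrkt, a plasminogen receptor, at 0.25 and S100a10, which holds plasminogen at the cell surface, at 0.39 (limma adjusted p = 0.162, 0.223 and 0.32). Of the coagulation proteases and cofactors, 3 of 15 on the array were measured, 3 positive and 0 negative, with a median of 0.20. These were the thrombin receptor F2r at 0.15, F13a1, a subunit of the enzyme that crosslinks fibrin, at 0.37 and protein S, Pros1, at 0.20 (limma adjusted p = 0.658, 0.741 and 0.766).

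Membrane serine proteases of epithelium and their inhibitors had 8 of 12 members measured, 0 positive and 8 negative, with a median of -0.33. Spint1, an inhibitor of matriptase that is not a serpin, stood at -0.35, the protease Tmprss2 at -0.38 and the protease Prss22 at -0.44 (limma adjusted p = 0.122, 0.179 and 0.236). The list's mean log2 value ran from 9.94 to 10.30 in KHR and from 9.65 to 9.98 in KHR-NICD tumours. The median difference of its members was -0.36 without and -0.35 with Eif2s3y. Lysosomal cathepsins and legumain, only some of which are targets of the Serpinb3 group, had 10 of 12 members measured, 4 positive and 6 negative. Their median was -0.05. Ctsh stood at -0.25, Lgmn at -0.18 and Ctsk at 0.48 (limma adjusted p = 0.321, 0.452 and 0.465).

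Granule proteins of neutrophils and lymphocytes, among them proteases that are targets of Serpina3n and Serpinb1a, were mostly below detection. The measured members were 2 of 10, the pore-former Prf1 at 0.40 and the mast cell chymase Cma1 at -0.09 (limma adjusted p = 0.421 and 0.854), and Prtn3, Ctsg, Gzma, Gzmb and Mpo were detected on 0 arrays. Complement genes around Serping1 had 4 of 9 members on the array measured, 2 positive and 2 negative, with a median of -0.01. C1qa stood at 0.22, C1qc at -0.12 and C4b at -0.17 (limma adjusted p = 0.518, 0.771 and 0.861). Without and with Eif2s3y its median was -0.34 and 0.39. Among the other pathway lists the sign also changed for the cathepsin list, at -0.22 and 0.05, and for the acute phase list, at -0.25 and 0.01. These changes were not tested.

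Collagens and their folding enzymes, which work with Serpinh1, had 11 of 12 members on the array measured, 5 positive and 6 negative, with a median of -0.06. Col3a1 stood at 0.55, the prolyl hydroxylase P4ha2 at -0.28 and the lysyl hydroxylase Plod2 at -0.35 (limma adjusted p = 0.236, 0.284 and 0.285). Acute phase and STAT3 genes, the company of Serpina3n, had 12 of 17 members measured, 4 positive and 8 negative, with a median of -0.10. Socs3, a feedback inhibitor of cytokine signals, stood at -0.46, Saa3, a serum amyloid, at -1.01 and the oncostatin M receptor Osmr at -0.39 (limma adjusted p = 0.335, 0.415 and 0.51). Genes induced by TGF-beta had 10 of 11 members on the array measured, 2 positive and 8 negative, with a median of -0.07. Tgfbi stood at -0.33, Pmepa1 at -0.38 and Inhba at -0.59 (limma adjusted p = 0.247, 0.284 and 0.442).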

How the data were processed

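Total RNA of 12 mouse oral tumours was measured on 1 bead array each. GenomeStudio and Partek appear in the submitters' processing notes, with neither version nor role. The authors deposited an intensity per probe (the mean over its beads) that was not normalized, with a detection p-value, the bead number and its standard error. Their second deposited table holds processed intensity values with medians from 16.4 to 16.7, which rank the probes of each array as the signals do. It served as an alternative.

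Platform annotation gave 1 gene for 23978 probes and did not list 1719. The neqc function (limma 3.58.1, R 4.3.3) corrected the background by way of the detection p-values, added an offset of 16 and gave quantile-normalized log2 values. The log2 values computed from the deposited signals were fitted with lmFit and eBayes over 11721 kept probes, without a block, and p-values were adjusted by Benjamini-Hochberg with a threshold of 0.05. The fit was tested on simulated data. A correlation between probes of 1 gene was tested with 100000 permutations. All kept serpin probes are named, and up to 3 measured members per pathway list by smallest p. The members and lists were chosen with earlier results of these data known. Alternatives were other corrections, filters, variance models, covariates, a replicate block and leaving out each tumour. The number of arrays limits the precision.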

Additional observations from a re-analysis of the deposited data

Results flagged for a closer look

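In 40 groups of 6 tumours (20 serpin probes in each tumour type), 2 held a tumour far from the others by Dixon's test, which chance gives in about 1 of 20 groups. Serpinb6c stood at 11.35 in KHR tumour 4, where the next KHR tumour stood at 10.38. Serpinb11 stood at 12.67 in KHR-NICD tumour 1, where the next KHR-NICD tumour stood at 12.81.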

How the results depend on the processing

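Of 514 log2 differences of single serpin probes under up to 26 alternatives each, 472 kept the sign and 42 turned, at most to a size of 0.28, and no difference of Serpina12 turned. Serpin calls went from 0 to 2 with array weights and to 1 with Eif2s3y as a covariate, all of Serpina12, and ran from 0 to 1 when each tumour was left out, where calls over all probes ran from 1 to 17, the highest without KHR 1 and the lowest without KHR 3 or KHR-NICD 2. Calls among the pathway lists went from 0 to 2 with Eif2s3y as a covariate, in a fit that called 2.03% of all probes. With array weights the differences turned to 0.11 for Serpina3n, 0.027 for Serpina9, 0.12 and 0.00217 for the Serpinb3a probes, -0.0095 for Serpinb6a, -0.0666 for Serpinb6c and 0.0995 for Serpinb8. Without turning, they moved to 1.65 for Serpinb6d, 0.58 for Serping1 and -0.46 for Serpinb2, none of them called. With median centring they turned to -0.0779 for Serpinb12, -0.0377 for Serpinb6a and -0.0741 for Serpinb6c. With Eif2s3y as a covariate they turned to 0.0103 for Serpinb1a and -0.11 for Serpinb6d, and with the muscle score as a covariate to 0.0149 for Serpina3n. Leaving out each tumour in turn gave ranges that cross 0, namely -0.052 to 0.14 for Serpina1a, -0.17 to 0.14 for Serpina3n, -0.0083 to 0.061 for Serpinb12 (ILMN_3140610), -0.20 to 0.058 for Serpinb1a, -0.20 to 0.087 for Serpinb3a (ILMN_2687408), -0.15 to 0.042 for Serpinb3a (ILMN_2837969), -0.64 to 0.28 for Serpinb3c, -0.019 to 0.23 for Serpinb6c, -0.0097 to 1.04 for Serpinb6d, -0.079 to 0.086 for Serpinb8 and -0.065 to 0.41 for Serping1. The ranges stayed on 1 side of 0 but moved by over 1.5 times for others, among them -0.37 to -0.12 for Serpinh1, -0.37 to -0.13 for Serpinb2, -0.30 to -0.054 for Serpina9 and 0.033 to 0.16 for Serpinb6a. The cause was not tested. Over all kept probes the number called was 8, and it ran from 0 with the replicate number as a block to 238 with Eif2s3y as a covariate, through 14 without background correction, 14 with an offset of 50, 17 with 1 probe per gene, 26 with a trended robust variance, 31 with median centring, 120 with the muscle score and 125 with array weights. The replicate block called 0 serpin probes. Tumours of the same number correlated between -0.20 and 0.44 in their deviations from the group means, and 1 of 6 numbers matched best with itself, so the numbers were not taken as pairs. Probes near background, such as those of Serpina1a and Serpinb8, are limited by signal, and 6 tumours per group limit the rest.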
